A study of Mus musculus with 16 samples.

Results

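The genes described here are the receptors for bone morphogenetic proteins (BMPs), activins and transforming growth factor beta (TGF-beta), together with *Smad4*. They are 4 type II receptor genes (*Bmpr2*, *Acvr2a*, *Acvr2b* and *Tgfbr2*), 5 type I receptor genes (*Bmpr1a*, *Bmpr1b*, *Acvr1*, *Acvr1b* and *Tgfbr1*) and *Smad4*, 10 of the 46320 genes in the count table, matched by symbol. All 10 had enough reads to be tested. *Bmpr2* prompted the choice through its values in axons, so its values in the comparisons that use axonal libraries are a description without a test. The other 9 were taken by family membership.

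RNA was sequenced from 16 libraries of cultured mouse motoneurons, 4 in each of 4 groups, which are +/+ somatodendritic, *Hnrnpr*-/- somatodendritic, +/+ axonal and *Hnrnpr*-/- axonal. *Hnrnpr* encodes hnRNP R, an RNA-binding protein found in axons, and the knockout allele lacks a stretch of the gene removed with CRISPR/Cas9. Neurons from the lumbar spinal cord of mouse embryos at day 13 were enriched by panning on p75NTR and grown in microfluidic chambers, in which axons cross into a side compartment. Both compartments received CNTF at 5 ng/ml, and only the axonal side received BDNF, at 20 ng/ml. Axonal cDNA was amplified with 15 PCR cycles and somatodendritic cDNA with 10. Compartment, BDNF and amplification change together and cannot be told apart. The labels do not say whether replicates were separate cultures or litters, so p-values measure the spread between libraries.

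Receptors of this family work in complexes. A ligand brings type II and type I serine/threonine kinases together, the type II receptor phosphorylates the type I receptor, and the type I receptor phosphorylates receptor-regulated Smads, which join Smad4 and enter the nucleus to regulate genes such as the *Id* genes. BMP signals from muscle to motoneuron are known to control growth of the neuromuscular synapse in flies, and the long tail of BMPR2 binds LIM kinase 1, a regulator of actin.

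Total counts ranged from 22024923 to 34864151 per library. Spearman correlations between libraries of a group, over the genes tested, were 0.973 to 0.990 in the somatodendritic groups and 0.899 to 0.966 in the axonal groups. *Hnrnpr* was at 178 to 241 CPM (counts scaled to the library total with TMM factors) in +/+ and 0.545 to 1.16 CPM in *Hnrnpr*-/- somatodendritic libraries, and at 120.0 to 422 CPM and 0.597 to 1.10 CPM in the axonal ones. The 422 CPM came from +/+ axonal replicate 2, which was the highest axonal library for 6 of the 10 members and for 19.5% of all genes tested. It enters the estimate of spread in every comparison, and the +/+ compartment values of the members are also given without it. Of 6 motoneuron markers, *Mnx1* was at 0 in all 8 somatodendritic libraries and *Chat*, for the acetylcholine-synthesizing enzyme, had a mean of 0.899 CPM in +/+ and 1.07 CPM in *Hnrnpr*-/- ones, whereas *Slc18a3*, *Slc5a7* and *Isl1* had means of 4.25 to 8.05 CPM there. Markers of other cells were present in every group, among them 8 astrocyte or radial glia genes summing to 1048 to 2275 CPM in somatodendritic and 2082 to 5386 CPM in axonal libraries. In such mixed RNA, fewer cells of a type and less RNA per cell cannot be told apart.

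The RNA level of each gene was first compared per transcript length, as RPKM, in which the read count is scaled by library depth and exon length. In +/+ somata and dendrites, *Acvr2a*, a type II receptor for activins and BMPs, had the highest level, with 28.3 ± 2.92 RPKM (SD, n = 4), and its 4 libraries lay above those of every other member. Its exons overlap those of *Orc4*, as described below, so this level may include *Orc4* reads. *Smad4* with 12.1 ± 1.12 RPKM and *Bmpr1a* with 11.04 ± 2.48 RPKM came next and overlapped each other. *Tgfbr1* (6.73 ± 0.792 RPKM) overlapped *Acvr1* (5.59 ± 0.457 RPKM), followed by *Acvr1b* (4.42 ± 0.325 RPKM) and *Acvr2b* (2.74 ± 0.330 RPKM), which overlapped neither neighbour in the order. *Bmpr2*, *Tgfbr2* and *Bmpr1b* formed the lower end at 1.89, 1.71 and 1.58 RPKM, with overlapping libraries. Those of *Tgfbr2*, at 0.790 to 3.32 RPKM, also spanned the libraries of *Acvr2b*, at 2.25 to 2.92 RPKM. The leading 6 members had the same order in *Hnrnpr*-/- somata and dendrites, led by *Acvr2a* with 26.3 ± 5.21 RPKM.

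In axons the order differed. *Smad4* led with 18.9 ± 2.76 RPKM in +/+ and 18.9 ± 2.38 RPKM in *Hnrnpr*-/- axons, and *Bmpr1a* followed with 18.2 ± 8.34 and 15.1 ± 3.13 RPKM. *Acvr2a* no longer led, at 7.77 ± 4.03 and 6.77 ± 2.25 RPKM, where its libraries overlapped those of *Tgfbr2* at 6.90 ± 3.87 and 7.495 ± 4.12 RPKM. *Acvr1b* and *Bmpr1b* were lowest, between 1.08 and 1.76 RPKM as group means. In +/+ axons each neighbour in the order overlapped the next, so the order there is not resolved beyond the spread between libraries.

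**Figure D1:**
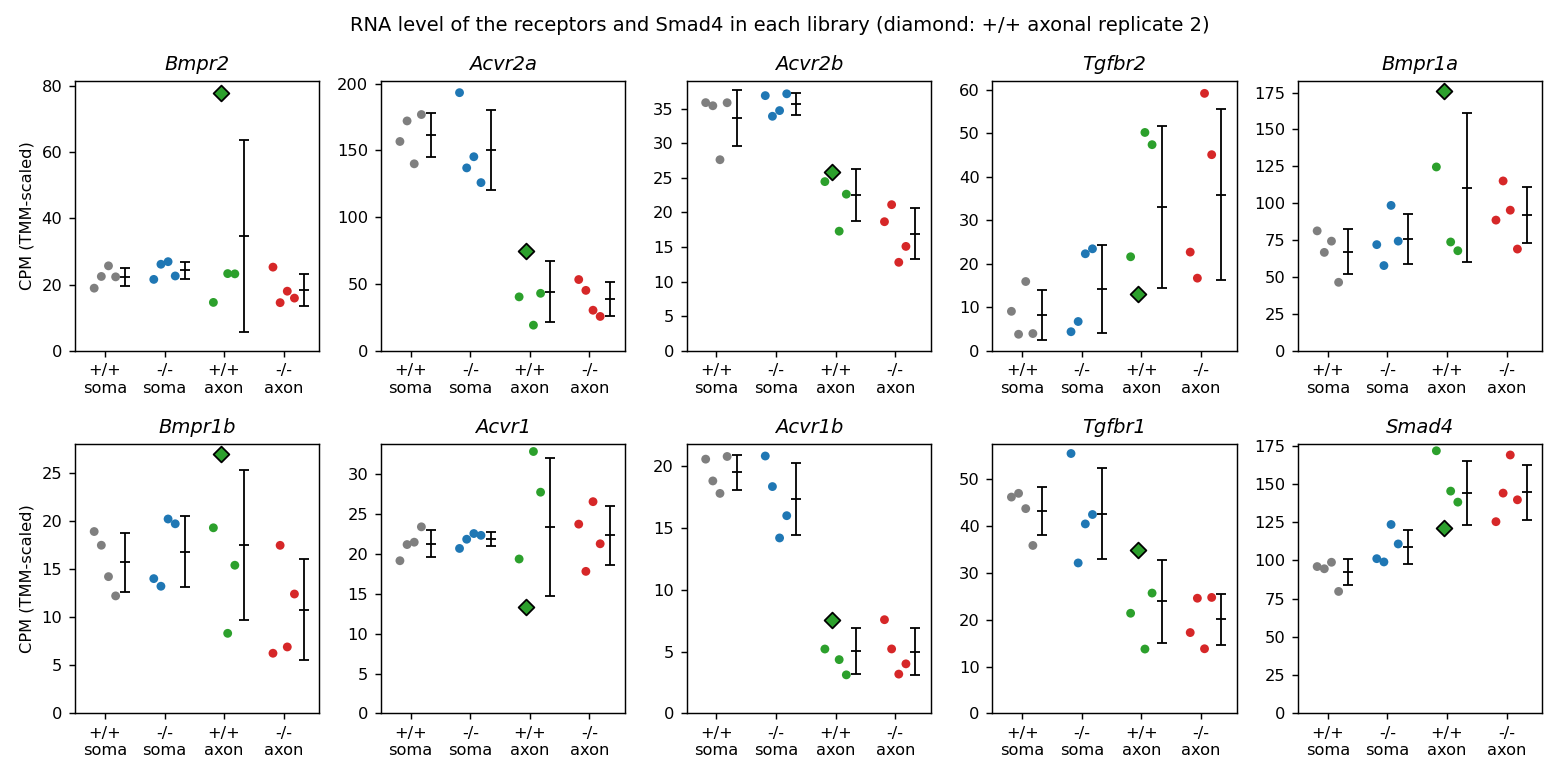
RNA level of the 9 receptors and Smad4 in each library, as CPM scaled by TMM factors (vertical axes, each from 0), by genotype and compartment. Points are libraries, the diamond is +/+ axonal replicate 2, and crosses with bars give the mean ± SD of 4 libraries. Acvr2a, Acvr2b, Acvr1b and Tgfbr1 are lower in every axonal library than in every somatodendritic library of the same genotype, and the diamond lies far above the other axonal libraries for Bmpr2.

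The first comparison asks which receptor transcripts are found in axons at another level than in the cell bodies and dendrites. In +/+ motoneurons 7 of the 9 members other than *Bmpr2* changed, 3 higher and 4 lower in axons, by edgeR's quasi-likelihood test with an adjusted p under 0.05. For comparison, 57.5% of all 19964 genes tested changed, 30.1% higher and 27.4% lower. The median log2 fold change was 0.14 for the 10 members and 0.07 for all genes, and without +/+ axonal replicate 2 it was -0.14 and 0.03. In *Hnrnpr*-/- motoneurons 5 of these 9 changed, 1 higher and 4 lower, against 54.2% of all genes (27.5% higher and 26.8% lower), and the medians were -0.52 and -0.00. The contrasts of the 2 genotypes share no library, but they share the estimate of spread, and some same-numbered libraries of the genotypes deviated together. Without +/+ axonal replicate 2, 6 of the 9 changed in +/+ motoneurons, against 58.2% of 20328 genes tested. The log2 fold changes then moved from -1.86 to -2.24 for *Acvr2a*, -0.58 to -0.65 for *Acvr2b*, -1.95 to -2.21 for *Acvr1b*, -0.85 to -1.09 for *Tgfbr1*, 2.01 to 2.27 for *Tgfbr2* and 0.64 to 0.71 for *Smad4*, which all kept their call.

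The activin type II receptors were lower in axons. In CPM, which are used from here on to compare libraries, *Acvr2a* was at 157, 172, 140.0 and 177 in +/+ and 193, 137, 145 and 126 in *Hnrnpr*-/- somatodendritic libraries. Its axonal levels were 40.3, 74.9, 19.1 and 43.0 CPM in +/+ and 53.3, 45.2, 30.3 and 25.7 CPM in *Hnrnpr*-/- libraries. No axonal library reached the lowest somatodendritic one. *Acvr2a* was 3.64-fold lower in +/+ axons (log2 fold change -1.86 ± 0.33 SE, adjusted p = 0.000366) and 3.89-fold lower in *Hnrnpr*-/- axons (-1.96 ± 0.33, adjusted p = 0.000319). The gene lies on chr2:48704121-48793276 (GRCm39, + strand), with a summed exon length of 5705 bases. Of its exonic bases, 3081 overlap exons of *Orc4* on the other strand. Reads of the 2 genes cannot be told apart there because the library kit does not mark strand.

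*Acvr2b*, the second activin type II receptor, showed a smaller difference. Its levels were 35.9, 35.4, 27.6 and 35.9 CPM in +/+ and 36.9, 33.9, 34.7 and 37.2 CPM in *Hnrnpr*-/- somatodendritic libraries. In axons they were 24.5, 25.8, 17.3 and 22.6 CPM in +/+ and 18.7, 21.1, 12.8 and 15.1 CPM in *Hnrnpr*-/- libraries, again with no overlap between the compartments. The decrease was 1.49-fold in +/+ (log2 -0.58 ± 0.17, adjusted p = 0.0109) and 2.11-fold in *Hnrnpr*-/- motoneurons (-1.08 ± 0.18, adjusted p = 0.000256). The +/+ call was lost with library totals in place of TMM factors (adjusted p = 0.0666) and without +/+ axonal replicate 3 (adjusted p = 0.0562). *Acvr2b* lies on chr9:119231081-119271214 (+ strand) and shares 1471 exonic bases with *4930516B21Rik* on the other strand.

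The type I receptors of activin and TGF-beta, *Acvr1b* and *Tgfbr1*, which act through Smad2 and Smad3, were also lower in axons. *Acvr1b* was at 17.8 to 20.8 CPM in +/+ and 14.2 to 20.8 CPM in *Hnrnpr*-/- somatodendritic libraries. Its axonal levels were 5.21, 7.54, 4.35 and 3.12 CPM in +/+ and 7.58, 5.22, 3.18 and 4.01 CPM in *Hnrnpr*-/- libraries. The compartments did not overlap, and the fall, 3.85-fold in +/+ (log2 -1.95 ± 0.29, adjusted p = 0.000117) and 3.47-fold in *Hnrnpr*-/- motoneurons (-1.79 ± 0.29, adjusted p = 0.000234), held without any single library. *Tgfbr1* was at 46.2, 47.0, 43.7 and 35.9 CPM in +/+ and 55.5, 32.1, 40.5 and 42.5 CPM in *Hnrnpr*-/- somatodendritic libraries, and at 21.4, 34.8, 13.7 and 25.7 CPM in +/+ and 17.3, 24.6, 13.8 and 24.8 CPM in *Hnrnpr*-/- axonal libraries. The highest +/+ axonal library, replicate 2, lay just below the lowest +/+ somatodendritic one. *Tgfbr1* was 1.81-fold lower in +/+ (log2 -0.85 ± 0.27, adjusted p = 0.0130) and 2.12-fold lower in *Hnrnpr*-/- axons (-1.08 ± 0.27, adjusted p = 0.00357), with an adjusted p of 0.0510 in +/+ when axonal replicate 3 was left out.

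*Smad4*, the common partner of the receptor-regulated Smads, was higher in axons of both genotypes. It was at 95.9, 94.5, 98.8 and 79.7 CPM in +/+ and 101, 99.0, 123 and 111 CPM in *Hnrnpr*-/- somatodendritic libraries. The axonal libraries gave 172, 121, 145 and 138 CPM in +/+ and 125, 144, 169 and 139.6 CPM in *Hnrnpr*-/- motoneurons, all above the somatodendritic libraries of their genotype. The increase was 1.56-fold in +/+ (log2 0.64 ± 0.14, adjusted p = 0.00166) and 1.33-fold in *Hnrnpr*-/- motoneurons (0.41 ± 0.14, adjusted p = 0.0234). Without *Hnrnpr*-/- axonal replicate 3 the adjusted p in *Hnrnpr*-/- motoneurons was 0.0531. In each genotype 5 of 10 members did not overlap between the compartments, *Smad4*, *Acvr2a*, *Acvr2b*, *Acvr1b* and *Tgfbr1*, whereas 52.4% of all genes did not overlap in +/+ and 51.4% in *Hnrnpr*-/- motoneurons.

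**Figure D2:**
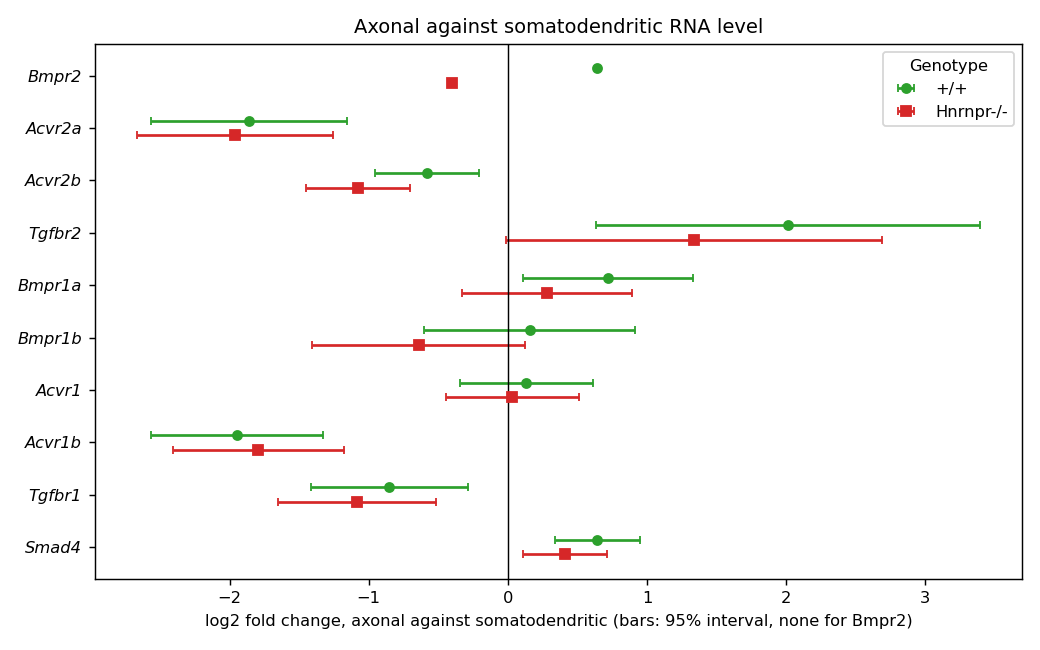
Log2 fold change of each member in axonal against somatodendritic libraries (horizontal axis), with its 95% confidence interval from the edgeR fit (left out for Bmpr2, which was not tested), in +/+ (circles) and Hnrnpr-/- motoneurons (squares). Acvr2a, Acvr2b, Acvr1b and Tgfbr1 lie below 0 and Smad4 above 0 in both genotypes, while Tgfbr2 has the widest intervals.

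*Tgfbr2*, the type II receptor for TGF-beta, had the largest increase and the largest spread. Its somatodendritic levels were 9.05, 3.78, 15.9 and 3.94 CPM in +/+ and 4.36, 6.71, 22.3 and 23.4 CPM in *Hnrnpr*-/- libraries. The axonal levels were 21.6, 13.03, 50.2 and 47.4 CPM in +/+ and 22.7, 16.7, 59.1 and 45.1 CPM in *Hnrnpr*-/- libraries. The compartments overlapped in both genotypes, with replicates 1 and 2 low in axons, and +/+ replicate 3 and *Hnrnpr*-/- replicates 3 and 4 high in somata. *Tgfbr2* was 4.04-fold higher in +/+ axons (log2 2.01 ± 0.65, adjusted p = 0.0157). In *Hnrnpr*-/- axons the value was 2.53-fold (1.34 ± 0.63, adjusted p = 0.0867), which did not pass the threshold, whereas the fit with the replicate number as a block gave a log2 fold change of 1.41 and an adjusted p of 0.00793.

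Markers of pericytes or smooth muscle moved with *Tgfbr2*. The 6 genes of that list, *Pdgfrb*, *Rgs5*, *Acta2*, *Tagln*, *Myl9* and *Cspg4*, were detected in all 16 libraries. Their sum was 62.3 to 476 CPM in +/+ and 81.9 to 308 CPM in *Hnrnpr*-/- somatodendritic libraries, and 2672, 1445, 11772 and 5381 CPM in +/+ and 2712, 2374, 10520 and 3928 CPM in *Hnrnpr*-/- axonal libraries. *Acta2* made up most of the axonal sum, with means of 4058 CPM in +/+ and 3736.5 CPM in *Hnrnpr*-/- axons. *Rgs5* was at only 6.60 and 13.1 CPM there. The 4 axonal libraries with the largest sums, replicates 3 and 4 of both genotypes, were those with the highest *Tgfbr2*. *Acvr1*, a BMP type I receptor, was highest in +/+ axonal replicates 3 and 4 among the +/+ axonal libraries, at 32.8 and 27.7 CPM against 19.3 and 13.4 CPM in replicates 1 and 2. The *Hnrnpr*-/- axonal libraries had 23.7, 17.8, 26.5 and 21.3 CPM of *Acvr1*, where replicate 1 lay above replicate 4 and so did not follow the marker sum. The sum of 6 fibroblast or meningeal markers was 102 to 601 CPM in +/+ and 173 to 1339 CPM in *Hnrnpr*-/- somatodendritic libraries, and 257 to 3498 CPM in +/+ and 521 to 2506 CPM in *Hnrnpr*-/- axonal libraries. It was high, at 1233 and 1339 CPM, in the *Hnrnpr*-/- somatodendritic replicates with 22.3 and 23.4 CPM of *Tgfbr2*. It did not follow *Tgfbr2* everywhere, since *Hnrnpr*-/- axonal replicate 1 had 1447 CPM of markers with 22.7 CPM of *Tgfbr2* and replicate 3 had 1183 CPM with 59.1 CPM. The part of these cells in the *Tgfbr2* level was not tested. The sum of 5 endothelial markers was 3.19 to 12.3 CPM in +/+ somatodendritic and 24.6 to 58.1 CPM in +/+ axonal libraries, and 6.71 to 28.1 CPM and 22.01 to 68.5 CPM in *Hnrnpr*-/- ones. *Kdr* made up most of it, with a mean of 37.0 CPM in +/+ axons, where *Cdh5* and *Cldn5* were at 0 in all 4 libraries.

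**Figure D3:**
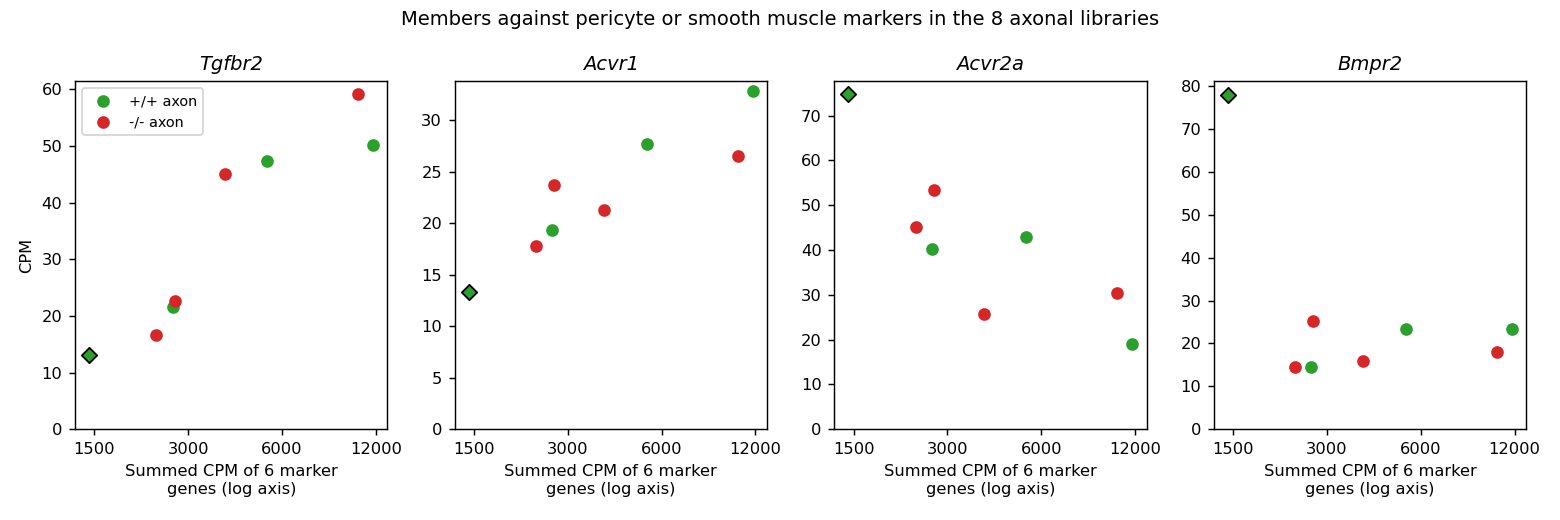
CPM of Tgfbr2, Acvr1, Acvr2a and Bmpr2 (vertical axes, from 0) against the summed CPM of 6 pericyte or smooth muscle marker genes (horizontal log axis) in the 8 axonal libraries, green +/+ and red Hnrnpr-/-. Tgfbr2 runs from 13.03 CPM in the library with the lowest sum, +/+ axonal replicate 2 (diamond), to 59.1 CPM in one with a sum of 10520 CPM, whereas Bmpr2 has its highest value, 78.0 CPM, at the lowest sum.

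Of the BMP type I receptors, *Bmpr1a* passed the threshold in +/+ motoneurons only narrowly. It was at 81.3, 66.7, 74.3 and 46.4 CPM in +/+ somatodendritic libraries and at 125, 176, 73.7 and 67.8 CPM in +/+ axonal ones, which overlapped. The value was 1.65-fold higher in axons (log2 0.72 ± 0.29, adjusted p = 0.0438). Without +/+ axonal replicate 2 it was 0.40 (adjusted p = 0.202), and the call was also lost without +/+ somatodendritic replicate 2, 3 or 4 or axonal replicate 1. In *Hnrnpr*-/- motoneurons *Bmpr1a* was at 71.9, 57.7, 98.5 and 74.3 CPM in somata and 88.5, 115, 95.3 and 68.9 CPM in axons, a log2 difference of 0.28 with a 95% interval of -0.33 to 0.89.

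*Bmpr1b*, a BMP receptor closely related to *Bmpr1a*, and *Acvr1* did not pass the threshold in either genotype. *Bmpr1b* was at 18.9, 17.5, 14.2 and 12.2 CPM in +/+ somata and 19.3, 26.9, 8.32 and 15.4 CPM in +/+ axons (log2 0.16, interval -0.61 to 0.92). Without +/+ axonal replicate 2 its value turned to -0.14 (interval -0.91 to 0.64). In *Hnrnpr*-/- motoneurons it was at 14.0, 13.2, 20.2 and 19.7 CPM in somata and 6.25, 17.5, 6.90 and 12.4 CPM in axons (-0.64, interval -1.41 to 0.12, adjusted p = 0.143). Without *Hnrnpr*-/- axonal replicate 2, the highest of these 4, the decrease passed the threshold with a log2 value of -0.98 and an adjusted p of 0.0342. *Acvr1* lay between 19.1 and 23.4 CPM in the 8 somatodendritic libraries, and its log2 difference was 0.13 (interval -0.35 to 0.61) in +/+, or 0.32 (-0.07 to 0.71) without axonal replicate 2, and 0.03 (-0.45 to 0.51) in *Hnrnpr*-/- motoneurons.

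*Bmpr2*, the BMP type II receptor, was at 18.9, 22.5, 25.7 and 22.3 CPM in +/+ and 21.6, 26.2, 26.9 and 22.6 CPM in *Hnrnpr*-/- somatodendritic libraries. Its axonal levels were 14.6, 78.0, 23.3 and 23.2 CPM in +/+ and 25.3, 14.5, 18.0 and 15.9 CPM in *Hnrnpr*-/- libraries. A single library, +/+ axonal replicate 2, was far above the other 15, which ranged from 14.5 to 26.9 CPM. In +/+ motoneurons the axonal against somatodendritic log2 value was 0.64, and it turned to -0.14 without that library. In *Hnrnpr*-/- motoneurons the value was -0.40 in both fits. The axonal libraries of both genotypes entered the comparison by which *Bmpr2* was chosen, so these values are not tested. The gene lies on chr1:59802721-59917240 (+ strand).

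The makeup of the type II receptor RNA was described as each gene's share of their summed RPKM, which does not depend on library scaling. *Acvr2a* made up 81.5 ± 4.02% in +/+ and 76.5 ± 7.28% in *Hnrnpr*-/- somata and dendrites, and 39.0 ± 15.05% and 40.4 ± 15.7% in axons. *Tgfbr2* made up 5.08 ± 3.81% and 8.87 ± 6.38% in somata and dendrites and 37.2 ± 21.4% and 42.3 ± 19.5% in axons. In axons the shares of these genes thus overlapped, whereas *Acvr2a* had the larger share in all 8 somatodendritic libraries. The share of *Bmpr2* was 5.49 ± 0.869% and 6.10 ± 1.12% in somata and dendrites and 14.0 ± 8.70% and 9.09 ± 2.03% in axons, and the +/+ axonal mean was 9.71% without replicate 2. Among type I receptors the share of *Bmpr1a* was 37.2 ± 5.17% and 40.6 ± 5.28% in somata and dendrites and 56.7 ± 11.3% and 57.0 ± 5.59% in axons. The summed type II RPKM was 1.05 to 1.45 times the summed type I RPKM in the 8 somatodendritic libraries and 0.462 to 0.860 times in the 8 axonal libraries, with no overlap. Reads of *Acvr2a* that cannot be told apart from those of *Orc4* enter the type II shares and sums.

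The second comparison asks whether loss of hnRNP R changed these transcripts in the somatodendritic compartment. None of the 10 members passed the threshold in edgeR, each with an adjusted p of 1, and none had an unadjusted p under 0.05. Over all genes 0.00501% passed, which is *Hnrnpr* alone, and 120 genes or 0.601% had an unadjusted p under 0.05. The 4 *Hnrnpr*-/- libraries of *Smad4*, at 99.0 to 123 CPM, lay above the 4 +/+ libraries, at 79.7 to 98.8 CPM, a log2 difference of 0.24 with an interval of -0.07 to 0.54. Over all genes 0.766% showed such a separation upward. For *Bmpr2* the difference was 0.12 with an interval of -0.70 to 0.94, which was -0.31 to 0.55 in the fit without +/+ axonal replicate 2, since all libraries share the estimate of spread. *Tgfbr2* had the largest difference, 0.79, and the widest interval, -0.55 to 2.14. Its difference ranged from 0.44 without *Hnrnpr*-/- replicate 4 to 1.35 without +/+ replicate 3.

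The third comparison is that of axons between genotypes, on which *Bmpr2* was chosen. Its mean was 18.4 ± 4.78 CPM in *Hnrnpr*-/- and 34.8 ± 29.1 CPM in +/+ axons, a log2 difference of -0.92. Without +/+ axonal replicate 2, the +/+ mean was 20.4 CPM and the difference -0.15. The *Hnrnpr*-/- libraries, at 14.5 to 25.3 CPM, lay across the range of the other 3 +/+ libraries, at 14.6 to 23.3 CPM. Over all genes 0.0100% passed the threshold in this comparison, and 0.00492% did so without that library.

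None of the other 9 members passed the threshold, each with an adjusted p of 1. *Acvr2b* had an unadjusted p of 0.0312, with 16.9 ± 3.70 CPM in *Hnrnpr*-/- against 22.5 ± 3.74 CPM in +/+ axons and a log2 difference of -0.41 (interval -0.79 to -0.04). Unadjusted p-values under 0.05 were found for 775 genes or 3.88% of all tested. Without replicate 2 the *Acvr2b* difference was -0.34 (interval -0.74 to 0.05). *Bmpr1b* was at 10.8 ± 5.25 CPM against 17.5 ± 7.77 CPM, a log2 difference of -0.70 (interval -1.47 to 0.06) that was -0.42 (interval -1.18 to 0.35) without replicate 2. *Smad4* had the narrowest interval of the members, -0.30 to 0.31 around 0.00, with means of 144 CPM in both groups.

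**Figure D4:**
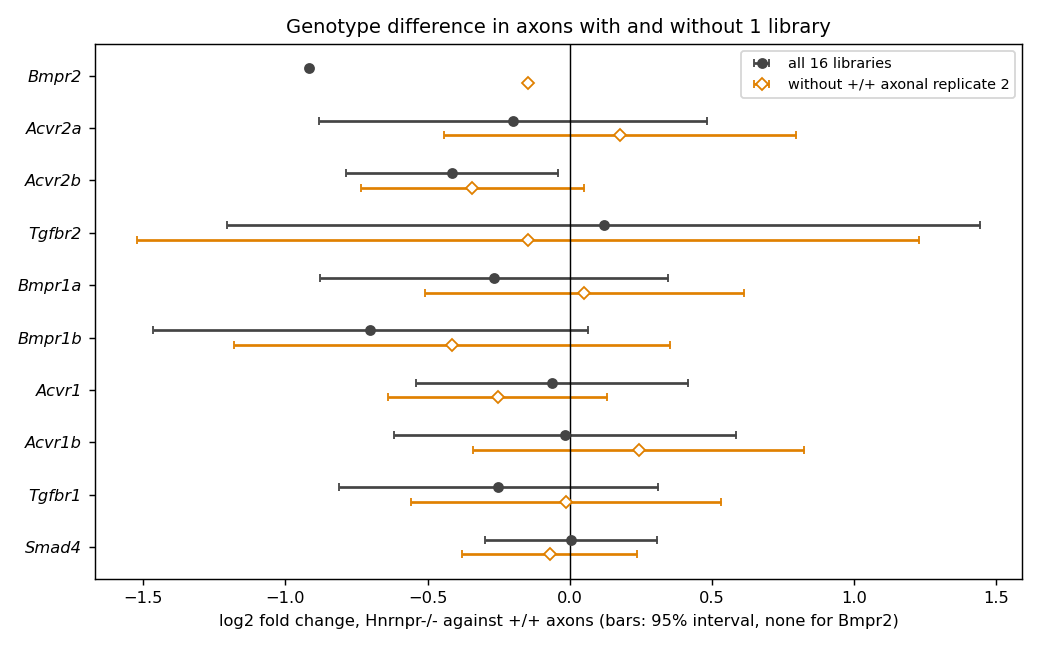
Log2 fold change of each member in Hnrnpr-/- against +/+ axonal libraries (horizontal axis), from the fit to all 16 libraries (circles) and from the fit without +/+ axonal replicate 2 (diamonds). Bars are 95% confidence intervals, left out for Bmpr2, which was chosen by this comparison and moves from -0.92 to -0.15.

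Leaving out replicate 2 turned the sign of the axonal difference for *Acvr2a* (-0.20 to 0.18), *Bmpr1a* (-0.27 to 0.05), *Acvr1b* (-0.02 to 0.24), *Tgfbr2* (0.12 to -0.15) and *Smad4* (0.00 to -0.07), none of which passed the threshold in either fit. That library was the highest of the 8 axonal libraries for *Bmpr2* and for 5 of the other 9 members, *Acvr2a*, *Acvr2b*, *Bmpr1a*, *Bmpr1b* and *Tgfbr1*, and for 19.5% of all genes tested. *Bmpr2* was 3.82 times the mean of the other 3 +/+ axonal libraries there. *Acvr2a* was at 2.19 times, and 12.6% of all genes reached a ratio of 2. *Tgfbr2* at 0.328 times and *Acvr1* at 0.502 times were low, while the median over all genes was 0.929. In the same library the sum of 4 dendritic and nuclear RNAs, *Map2*, *Malat1*, *Neat1* and *Meg3*, was 2865 CPM against 664 to 1387 CPM in the other 7 axonal libraries. The sums of the astrocyte or radial glia markers, 5386 CPM, and of the 6 motoneuron markers, 16.4 CPM against 2.61 to 9.13 CPM, were also the highest there, while the pericyte or smooth muscle and fibroblast or meningeal sums, 1445 and 257 CPM, were the lowest of the 8 axonal libraries. Between compartments the 4 dendritic and nuclear RNAs did not move together. In +/+ axons the mean of *Map2* was 250 against 1071 CPM in somata and dendrites, and that of *Meg3* 154 against 491 CPM. Those of *Malat1* and *Neat1* were higher in axons, at 1085 against 226 CPM and 30.4 against 7.01 CPM. All 4 directions were the same in *Hnrnpr*-/- motoneurons. The part of the RNAs of these lists in the receptor levels was not tested.

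The difference of the genotype effect between the compartments passed the threshold in edgeR for none of the 9 members tested and for 0% of all genes, with 265 genes or 1.33% at an unadjusted p under 0.05. *Acvr2b* had a difference of -0.50 (interval -1.02 to 0.03, unadjusted p = 0.0620, adjusted p = 1). For *Tgfbr2* and *Bmpr1a*, which passed the compartment threshold in +/+ motoneurons only, the difference was -0.68 (interval -2.56 to 1.21) and -0.44 (-1.30 to 0.43), each with an adjusted p of 1. Without +/+ axonal replicate 2 the difference was -0.94 for *Tgfbr2* and -0.12 for *Bmpr1a*. For *Bmpr2* the value was -1.04, and -0.27 without that library.

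The genes whose pattern over the 16 libraries was most like that of *Bmpr2* were found by the root mean square difference of centred log2 CPM, among 12997 genes with at least 5 CPM on average. *Xiap*, an inhibitor of caspases that also links BMP receptors to the TAB1 protein, was nearest with 0.146. It was followed by *Ppp1r2*, for an inhibitor of protein phosphatase, with 0.197, *Spag1* with 0.203, *Gm7335* with 0.206 and *Scoc* with 0.213, against a median of 0.777 over all genes compared. *Bmpr2* itself is high in +/+ axonal replicate 2, which weighs in this choice. These 5 genes were high there too, by log2 values of 1.46 to 2.26 above the mean of the other +/+ axonal libraries. Without that library the differences of the same 5 genes were 0.133 to 0.214. The genes were not ranked again without it, so which would then be nearest is not known. Among the members, *Bmpr1a* was nearest with 0.561, at rank 1662.

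The other genes of the pathway were described from lists of 26 ligands, 9 further receptors and co-receptors, 5 receptor-regulated Smads, 19 inhibitors and turnover factors, 10 target genes and 6 Smad-independent partners. Of these 75 genes 72 were tested, and *Gdf7*, *Mstn* and *Amhr2* had too few reads, with at most 4, 6 and 10 counts in a library. In axons 33 were higher and 15 lower than in somata and dendrites in +/+ motoneurons, with a median log2 fold change of 0.70, beside 30.1% and 27.4% of all genes with a median of 0.07. *Hnrnpr*-/- motoneurons had 29 higher and 16 lower and a median of 0.56, beside 27.5% and 26.8% of all genes with a median of -0.00. The summed pericyte or smooth muscle markers were also higher in the axonal libraries, with a median of 4027 against 112 CPM in +/+ and 3320 against 167 CPM in *Hnrnpr*-/- motoneurons, and the part of such cells in the levels of the pathway genes was not tested. None of the 72 passed the threshold between genotypes in either compartment.

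All 10 target genes were higher in +/+ axons, with a median log2 fold change of 3.56, and 9 of 10 in *Hnrnpr*-/- axons, with a median of 3.07, where 30.1% and 27.5% of all genes were higher. *Id1*, which encodes an inhibitor of basic helix-loop-helix factors, was at 5.71 CPM in +/+ somata and 106 CPM in axons (log2 4.21 ± 0.47, adjusted p = 2.55e-05), and its log2 value was 3.46 ± 0.45 in *Hnrnpr*-/- motoneurons. *Atoh8* and *Msx2*, which encode transcription factors, were higher by 6.78 ± 0.64 and 5.74 ± 0.95 in +/+ axons and by 4.92 ± 0.57 and 5.49 ± 0.94 in *Hnrnpr*-/- axons. The exception in *Hnrnpr*-/- motoneurons was *Id4*, with 0.29 ± 0.28 (adjusted p = 0.396).

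Among 19 inhibitors and turnover factors 9 were higher and 3 lower in each genotype, beside 30.1% and 27.4% of all genes in +/+ and 27.5% and 26.8% in *Hnrnpr*-/- motoneurons. *Smad6*, which blocks BMP type I receptors, was higher by 4.81 ± 0.46 in +/+ and 4.72 ± 0.46 in *Hnrnpr*-/- axons on the log2 scale. *Fst* and *Fstl3*, which encode secreted proteins that bind activins, were higher by 4.40 ± 1.02 and 4.12 ± 0.88 in +/+ axons and by 3.69 ± 0.99 and 4.71 ± 0.91 in *Hnrnpr*-/- axons. *Ltbp1*, for a protein that tethers latent TGF-beta, was higher by 2.52 ± 0.54 in +/+ and 2.05 ± 0.54 in *Hnrnpr*-/- axons, and *Bambi*, for a receptor-like protein without a kinase, by 2.14 ± 0.44 and 2.40 ± 0.45.

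Of 24 ligands tested, 10 were higher and 4 lower in +/+ axons, and 8 were higher and 6 lower in *Hnrnpr*-/- axons, beside the same shares of all genes. *Inhba*, the activin beta A subunit, rose from 3.31 to 98.3 CPM in +/+ (log2 4.89 ± 0.87) and from 3.48 to 64.4 CPM in *Hnrnpr*-/- motoneurons (4.21 ± 0.84). *Tgfb3*, *Bmp6* and *Tgfb1* were higher by 4.07 ± 0.76, 3.13 ± 0.75 and 2.60 ± 0.79 in +/+ axons and by 3.39 ± 0.74, 3.24 ± 0.75 and 1.90 ± 0.77 in *Hnrnpr*-/- axons. *Inha*, for the inhibin alpha subunit that opposes activin, was lower in axons of both genotypes, with -2.003 ± 0.40 in +/+ and -1.94 ± 0.40 in *Hnrnpr*-/- motoneurons.

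Further receptors and co-receptors split, with 2 of 8 higher and 4 lower in each genotype, beside 30.1% and 27.4% of all genes in +/+ and 27.5% and 26.8% in *Hnrnpr*-/- motoneurons. *Acvrl1*, a type I receptor best known from endothelium, and *Eng*, its co-receptor endoglin, were higher by 5.50 ± 0.89 and 3.78 ± 0.83 in +/+ axons and by 4.90 ± 0.86 and 2.88 ± 0.80 in *Hnrnpr*-/- axons. The endothelial sum was also higher in axons, with a median of 33.5 against 5.63 CPM in +/+ and 47.4 against 10.7 CPM in *Hnrnpr*-/- motoneurons. That came from *Kdr* alone, at 37.0 against 4.25 CPM and 45.6 against 5.67 CPM, whereas *Pecam1*, *Cdh5*, *Cldn5* and *Tek* had lower means in axons than in somata and dendrites in both genotypes. The part of endothelial RNA in these levels was not tested. *Neo1* and *Rgmb*, for neogenin and a repulsive guidance molecule that acts as a BMP co-receptor, were lower in axons, with -2.04 ± 0.24 and -1.83 ± 0.31 in +/+ and -1.57 ± 0.24 and -1.68 ± 0.31 in *Hnrnpr*-/- motoneurons. Of the 5 receptor-regulated Smads, 1 was higher and 1 lower in +/+ axons and 1 was lower in *Hnrnpr*-/- axons. *Smad1*, which carries BMP signals, was lower by a log2 value of -0.55 ± 0.16 in +/+ and -0.64 ± 0.16 in *Hnrnpr*-/- axons. *Smad9*, which also carries BMP signals, was higher in +/+ axons at 5.04 against 1.42 CPM (1.83 ± 0.50, adjusted p = 0.00636), and its value was 0.42 ± 0.49 in *Hnrnpr*-/- axons (adjusted p = 0.489). *Smad2*, *Smad3* and *Smad5* did not pass the threshold in either genotype, with values of -0.25 to 0.25.

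Of the Smad-independent partners, *Limk1*, for LIM kinase 1, fell from 142 CPM in +/+ somata to 22.3 CPM in +/+ axons (log2 -2.67 ± 0.36, adjusted p = 6.55e-05) and by a log2 value of -2.30 ± 0.36 in *Hnrnpr*-/- motoneurons (adjusted p = 0.000186). *Limk2* followed with -0.97 ± 0.21 and -0.77 ± 0.21. *Tab2*, for an adaptor of the kinase TAK1, was higher in axons, with 0.53 ± 0.17 and 0.49 ± 0.17, and *Tab1* was lower in +/+ axons, with -0.60 ± 0.19, while its value in *Hnrnpr*-/- axons was -0.27 ± 0.19 (adjusted p = 0.245). *Xiap* did not pass the threshold in either genotype, with 0.57 ± 0.33 and -0.24 ± 0.33.

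**Figure D5:**
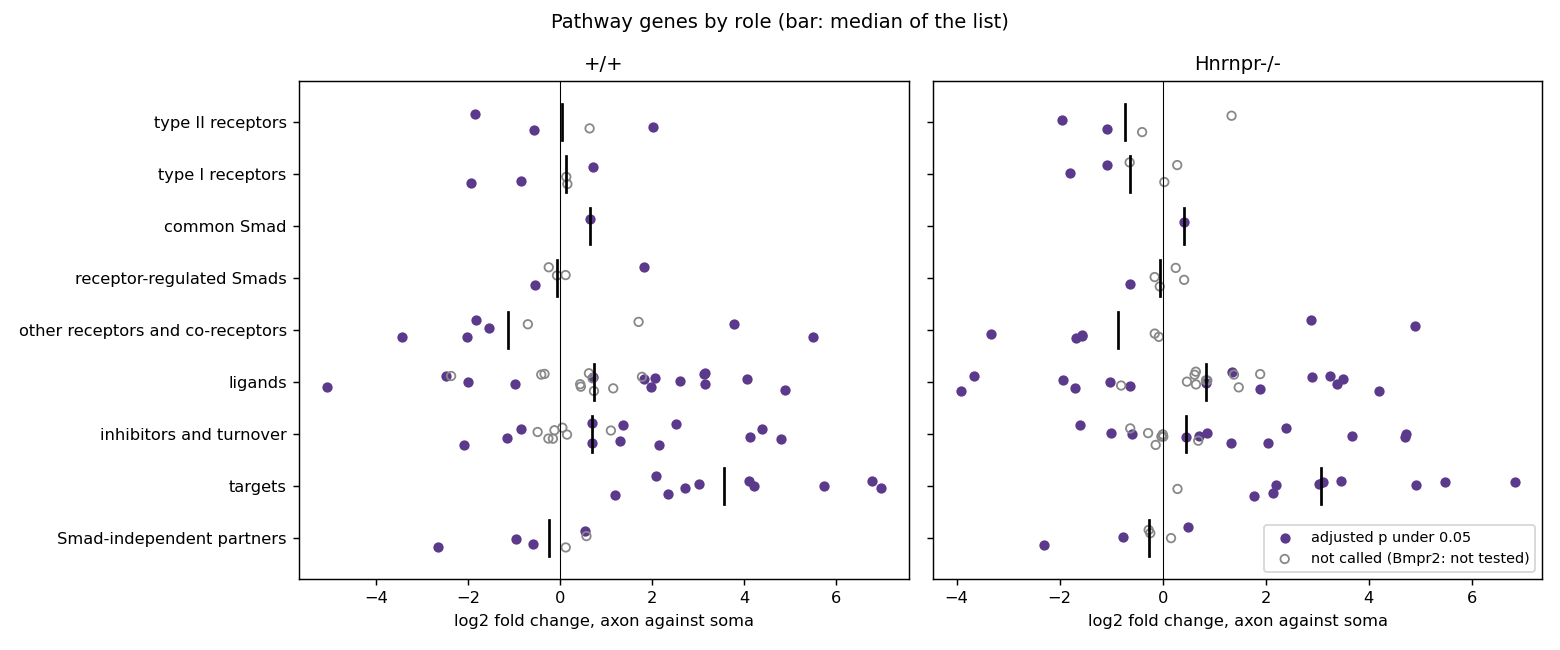
Log2 fold change in axonal against somatodendritic libraries (horizontal axis) of each tested member and pathway gene, by role, in +/+ (left) and Hnrnpr-/- motoneurons (right). Filled points have an adjusted p under 0.05 in edgeR, Bmpr2 is shown open without a test, and vertical bars are list medians. The target genes lie furthest to the right, with medians of 3.56 and 3.07, while the receptors spread to both sides of 0.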

How the data were processed

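The deposited values are fractional read counts, treated here like expected counts because they need not be whole, that the authors made with featureCounts 1.6.4 after trimming and alignment with STAR 2.7.2b to the RefSeq annotation of GRCm39. They counted exonic reads in the reverse-strand setting and divided reads with several alignments or genes into fractions. SMART-Seq v4 cDNA does not mark strand. Counts were rounded. In edgeR 4.0.16 (R 4.3.3, limma 3.58.1), genes were filtered by group expression, scaled by TMM and fitted with a mean per group over 16 libraries by quasi-likelihood, with two-sided tests and Benjamini-Hochberg adjustment over 19964 genes. The fit was tested on simulated data in which libraries of a compartment were drawn alike, apart from changes put into the *Hnrnpr*-/- axonal ones. That simulation held no deviating library and no shared replicate effects, so it does not bear on them.

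The members and lists were chosen with earlier results of these data known. All members are named, with up to 4 changed genes of at least 5 CPM per list and comparison, largest first, and the 5 genes most like *Bmpr2*. A gene that this rule names is not reported here. *Id4*, *Smad2*, *Smad3*, *Smad5*, *Smad9* and *Xiap* were named after their values were seen. Same-numbered *Hnrnpr*-/- axonal and somatodendritic libraries deviated together (correlation over 0.1 in 4 of 4 pairs), as 3 of 4 +/+ pairs did. Between genotypes, 2 of 4 same-numbered axonal pairs and 2 of 4 somatodendritic pairs did so, with a correlation of 0.763 for axonal replicate 3. DESeq2 1.42.0, other scalings and filters, fits of fewer groups, a replicate block and each library left out were alternatives.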

Additional observations from a re-analysis of the deposited data

Results flagged for a closer look

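Each member other than *Bmpr2* was checked in each group for a library far from the other 3, which made 36 checks, and 1 library was found. By chance about 1 in 20 such checks gives one. *Acvr2b* was low in +/+ somatodendritic replicate 3, at 27.6 CPM against 35.4 to 35.9 CPM in the other 3. *Bmpr2* had a far library by the same measure in +/+ axonal replicate 2, at 78.0 CPM against 14.6 to 23.3 CPM in the other 3, which was known when the gene was chosen and is a description, not a test.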

How the results depend on the processing

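Of 398 values of single members under other settings, 385 were scored as unchanged, and of 352 with a library left out, 313 were. Unchanged meant the same direction and side of the threshold. *Bmpr2* is included in these counts, although its axonal values are not tested. Its genotype difference in axons and its difference between compartments were scored instead by a shift smaller than its SD within groups. The calls of *Acvr2a* and *Acvr1b* in both genotypes, of *Smad4* and *Tgfbr2* in +/+ and of *Acvr2b* and *Tgfbr1* in *Hnrnpr*-/- motoneurons held in every setting and without any single library. The +/+ call of *Bmpr1a* was lost without a filter on expression (adjusted p = 0.0539), in DESeq2 with shrinkage (0.0518) and in the fit of only the groups compared (0.0746). Library totals in place of TMM factors raised the median log2 value of all genes by 0.15 in the +/+ and 0.12 in the *Hnrnpr*-/- comparison of compartments, and the share of calls that were higher in axons from 52.4% to 58.8% and from 50.6% to 56.3%.

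The genotype difference of *Smad4* in axons, close to 0, turned to -0.0072 with RLE factors, -0.0034 with library totals, -0.0061 in default DESeq2 and -0.0061 in DESeq2 with shrinkage. That of *Acvr1b* in axons turned to 0.0070 without the filter, and that of *Tgfbr1* in somata and dendrites to 0.0018 with library totals. Over all genes, 2 passed the threshold between axons of the genotypes, against 5 in both DESeq2 settings, 1 in the fit of only the groups compared, 1 with the replicate block and 1 to 3 with a library left out. For the difference between compartments default DESeq2 gave 1 gene. As shares of CPM rather than RPKM, *Acvr2a* made up 71.4% of type II receptor RNA in +/+ and 66.6% in *Hnrnpr*-/- somata and dendrites. By the same measure *Bmpr2* made up 9.95% and 11.0% there and 23.4% and 16.7% in axons. These shares weight genes by length, and for the other changes the cause was not tested.

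With a library left out, the +/+ axonal against somatodendritic log2 value ranged from -0.14 to 0.88 for *Bmpr2*, -0.14 to 0.43 for *Bmpr1b* and -0.033 to 0.32 for *Acvr1*, and in *Hnrnpr*-/- motoneurons from -0.021 to 0.12 for *Acvr1*. The genotype difference in somata and dendrites ranged from -0.0071 to 0.21 for *Bmpr1b* and -0.17 to 0.12 for *Tgfbr1*. In axons it ranged from -0.44 to 0.18 for *Acvr2a*, -0.22 to 0.40 for *Tgfbr2*, -0.43 to 0.052 for *Bmpr1a*, -0.25 to 0.16 for *Acvr1*, -0.29 to 0.24 for *Acvr1b* and -0.072 to 0.10 for *Smad4*. Members called ranged from 5 to 7 in +/+ and 4 to 6 in *Hnrnpr*-/- motoneurons, while all genes called ranged from 10198 to 11821 and from 9221 to 11609.

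With the replicate number as a block, *Tgfbr2* passed the threshold in *Hnrnpr*-/- motoneurons (log2 1.41, adjusted p = 0.00793), and the block changed no other call of a member. With a term for each culture, a block chosen after seeing the data, *Tgfbr2* was also called there (1.499, adjusted p = 0.00723) and *Bmpr1a* was not in +/+ motoneurons (0.64, adjusted p = 0.0528).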
